A study of Homo sapiens with 6 samples.

Results

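The 10 genes described here are the transcription factors SNAI1, SNAI2, ZEB1, ZEB2 and TWIST1, the mesenchymal markers VIM and FN1, and the epithelial regulators ESRP1, ESRP2 and GRHL2. They were chosen by name, as all probe sets whose annotation gives exactly 1 of these symbols, and all 10 were found among 18656 measured genes. They were read by 171 of the 224320 probe sets that name a single gene. The data are 6 arrays of messenger RNA from AGS, an established human gastric adenocarcinoma line. AGS cells received an oligonucleotide inhibitor of miR-25-3p (3 arrays) or a non-targeting control RNA (3 arrays), each by lipid transfection repeated after 24 h, and were harvested for total RNA at 48 h from the first dose. Samples within a group are described as biological replicates, all of this single line, and the mature microRNA was not measured.

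Epithelial-mesenchymal transition (EMT) is the change by which epithelial cells loosen their junctions and take on a motile, matrix-producing state. SNAI, ZEB and TWIST proteins are the transcription factors best known for driving it, and SNAI and ZEB proteins repress epithelial genes by binding the DNA sequence called the E-box. GRHL2 and the splicing regulators ESRP1 and ESRP2 maintain the epithelial state, while vimentin (VIM) and fibronectin (FN1) are classic marks of the mesenchymal one. In many epithelia ZEB1 and ZEB2 messages are held down by microRNAs of the miR-200 family and by miR-205, a different group of microRNAs from the one targeted here.

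The mature sequences are shown because a microRNA recognises messages mainly through its seed, bases 2 to 8, which is in capitals. The sequences are from RefSeq (GRCh38.p14), written 5′ to 3′, and miR-25-3p is encoded on the minus strand at chr7:100093571-100093592. The first 6 lines share the seed of the inhibited microRNA, and the next 6 are the miR-200 family, with its pair of seeds, and miR-205.
hsa-miR-25-3p: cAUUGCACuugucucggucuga
hsa-miR-92a-3p: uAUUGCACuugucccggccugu
hsa-miR-92b-3p: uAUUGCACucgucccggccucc
hsa-miR-363-3p: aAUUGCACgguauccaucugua
hsa-miR-367-3p: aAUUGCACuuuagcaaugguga
hsa-miR-32-5p: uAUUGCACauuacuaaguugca
hsa-miR-200b-3p: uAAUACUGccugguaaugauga
hsa-miR-200c-3p: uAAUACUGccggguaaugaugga
hsa-miR-429: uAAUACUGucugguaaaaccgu
hsa-miR-200a-3p: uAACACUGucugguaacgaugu
hsa-miR-141-3p: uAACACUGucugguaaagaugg
hsa-miR-205-5p: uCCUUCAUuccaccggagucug
None of the ZEB-directed microRNAs printed here has the seed of miR-25-3p. Target sites in the 10 messages were not analysed here.

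The comparison asked whether EMT genes differ when AGS cells receive the miR-25-3p inhibitor. None of the 10 passed the threshold, an adjusted p of 0.05 over all genes in limma, in either direction. SNAI1 had the strongest evidence, lower in the inhibitor arrays by 0.29 on the log2 scale, and SNAI2 had the next strongest, with a higher mean. The groups of arrays did not overlap for these and for no other of the 10, while 12.9% of all genes had no overlap. The other 8 had differences between -0.092 and 0.092 with overlapping arrays, and limma gave them adjusted p values of 0.87 to 0.998. Over all genes limma called 0 of 18656 (0%) higher and 0 (0%) lower, with 2.95% higher and 3.16% lower, 6.12% in all, at an unadjusted p under 0.05.

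Gene values of single arrays correlated at 0.990 to 0.994 between groups and at 0.991 to 0.995 within them. A gene value is the mean log2 value of the probe sets of that gene, each of which reads about 1 exon, and precision is limited by there being 3 arrays a group. The brightness of a probe set depends on its sequence as well as on the message, so levels are not ranked between genes. As a rough mark of silence, 476 probe sets of olfactory receptor genes, which are mostly silent outside the nose, had a median of 2.68 and a 95th percentile of 4.67. The corresponding values for 348 olfactory receptor genes were 2.67 and 4.29.

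SNAI1, the zinc finger repressor known as Snail, had values of 6.34, 6.24 and 6.34 in inhibitor arrays, against 6.62, 6.60 and 6.56 in control arrays. Every inhibitor array lay below every control array, with a gap wider than the spread within either group. The means were 6.31 ± 0.058 in inhibitor arrays and 6.59 ± 0.034 in control arrays (SD, n = 3 each). The difference was -0.29 (SE 0.084, 95% interval -0.48 to -0.094), or 0.82-fold, with an unadjusted p of 0.0084 and an adjusted p of 0.79 in limma. Of all genes, 0.772% had a smaller p, and 7.68% of genes had every inhibitor array below every control array. The exact two-sided permutation test gave p = 0.1, the smallest that 3 arrays against 3 allow.

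All 3 probe sets of SNAI1 had a negative difference, against 49.8% of all probe sets, but they were not alike. The first by identifier had 6.39, 6.45 and 6.69 in inhibitor arrays and 6.97, 7.08 and 6.89 in control arrays, a difference of -0.47 (SE 0.15). It was the only probe set of the gene whose groups did not overlap, a pattern found in 12.2% of all probe sets (6.32% with inhibitor below and 5.89% with inhibitor above). The brightest had 7.21, 7.00 and 6.68 in inhibitor arrays and 7.30, 7.11 and 7.27 in control arrays. All 3 lay above the 95th percentile of olfactory receptor probe sets. RefSeq lists a pseudogene, SNAI1P1, so part of this signal may come from another locus, which was not tested.

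SNAI2, or Slug, the close relative of Snail, had 3.61, 3.59 and 3.67 in inhibitor arrays, against 3.48, 3.56 and 3.21 in control arrays. Its inhibitor arrays all lay above the control arrays, though the nearest pair, inhibitor replicate 2 and control replicate 2, was almost level. Inhibitor arrays lay wholly above in 5.2% of all genes. The difference was 0.21 (SE 0.11, 95% interval -0.038 to 0.46), with an unadjusted p of 0.088 and an adjusted p of 0.79 in limma. The low value of control replicate 3 carried much of it: the difference was 0.11 without that array. SNAI2 has 5 probe sets, of which only 1 lay above the olfactory receptor mark. That probe set had 6.82, 7.41 and 7.39 in inhibitor arrays and 6.72, 7.12 and 7.03 in control arrays, so its groups overlapped.

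Among the 10 genes, 2 (SNAI1 and SNAI2) had groups of arrays that did not overlap, where 12.9% of all genes did, and 1 (SNAI1) had an unadjusted p under 0.05. That count was 0 when each gene was read from its brightest probe set alone, where SNAI1 had an unadjusted p of 0.14 in limma, and 2 without control replicate 2, where SNAI2 had 0.049. With 10 genes that share is close to the background and is not a result about EMT genes.

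**Figure D1:**
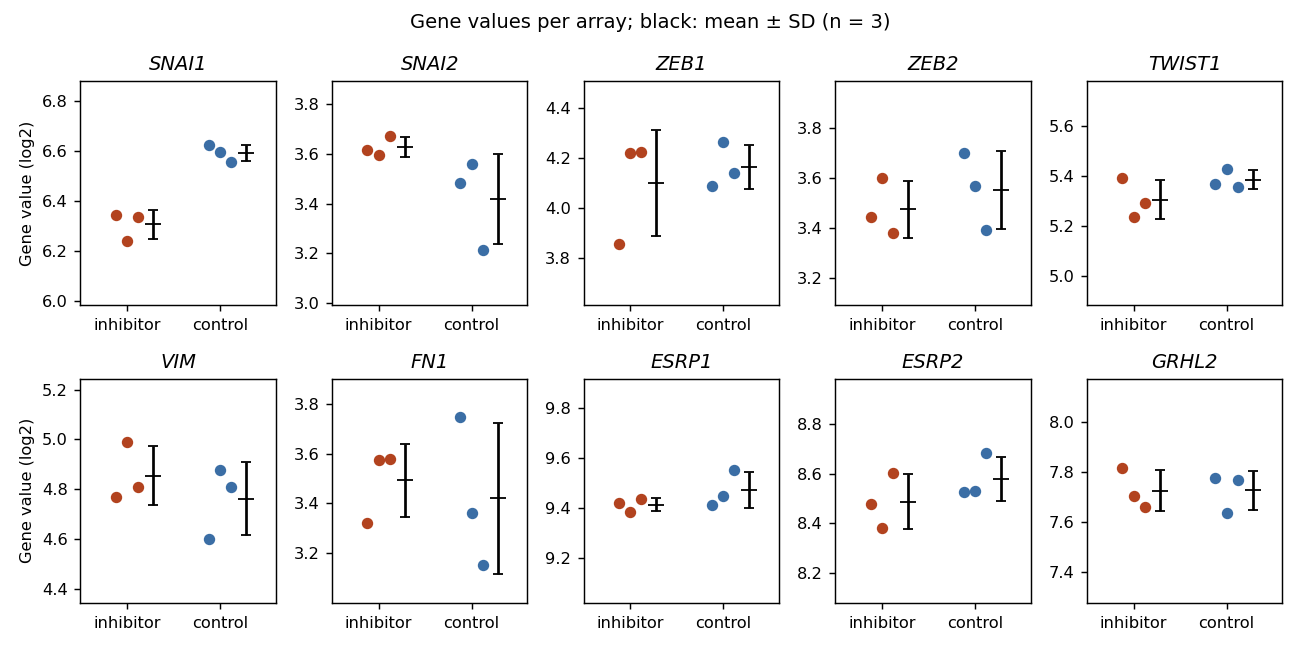
Gene values (log2, vertical axis, all panels spanning the same width) of the 10 genes in the 3 inhibitor arrays (left of each panel) and the 3 control arrays (right), with mean ± SD in black. SNAI1 points lie at 6.24 to 6.34 in inhibitor arrays and 6.56 to 6.62 in control arrays, while the groups of 8 genes overlap.

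ZEB1 and ZEB2 encode zinc finger and homeobox repressors that silence E-cadherin. ZEB1 had 3.86, 4.22 and 4.22 in inhibitor arrays and 4.09, 4.26 and 4.14 in control arrays. Inhibitor replicate 1 was the lowest array, and the other 5 lay between 4.09 and 4.26. The difference was -0.065 (SE 0.12, 95% interval -0.34 to 0.21), and it was 0.058 without inhibitor replicate 1. ZEB2 had 3.44, 3.60 and 3.38 in inhibitor arrays and 3.70, 3.57 and 3.39 in control arrays. These values interleave, with a difference of -0.077 (SE 0.11, 95% interval -0.33 to 0.17). It was -0.0035 without control replicate 1 and -0.16 without control replicate 3.

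The ZEB values were averages over probe sets of very unequal brightness. Of 17 probe sets of ZEB1, 12 lay at or below the olfactory receptor mark, and so did 12 of 14 of ZEB2. One ZEB1 probe set, the first by identifier, stood far above the rest. It had 9.46, 9.77 and 9.35 in inhibitor arrays and 9.94, 9.53 and 9.43 in control arrays, whereas the median ZEB1 probe set was at 4.14. Its groups overlapped as well. For ZEB2 the highest probe set mean was 6.01. RefSeq also lists a pseudogene of ZEB2, ZEB2P1.

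TWIST1, a basic helix-loop-helix factor that also binds E-boxes, had 5.39, 5.23 and 5.29 in inhibitor arrays and 5.37, 5.43 and 5.36 in control arrays. The groups overlapped at inhibitor replicate 1, and the difference was -0.079 (SE 0.087, 95% interval -0.28 to 0.12). Its 7 probe sets ranged from 1.31 to 8.73 in mean level, 4 of them above the olfactory receptor mark. In 2 of the 7 every inhibitor array lay below every control array, against 6.32% of all probe sets. Both were among the dim ones. The first had 3.76, 3.03 and 3.44 in inhibitor arrays and 3.88, 4.28 and 3.85 in control arrays. The second had 2.76, 2.89 and 3.05 in inhibitor arrays and 3.24, 3.14 and 3.37 in control arrays.

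VIM, the intermediate filament protein of mesenchymal cells, had 4.77, 4.99 and 4.81 in inhibitor arrays and 4.60, 4.88 and 4.81 in control arrays. The difference was 0.092 (SE 0.11, 95% interval -0.16 to 0.34), and the groups overlapped. It was 0.010 without control replicate 1 and 0.025 without inhibitor replicate 2. Of its 14 probe sets, 8 lay above the olfactory receptor mark, 7 had a positive and 7 a negative difference, against 50.2% and 49.8% of all probe sets. The brightest, with a mean of 8.48, had 8.92, 8.72 and 8.17 in inhibitor arrays and 8.39, 8.52 and 8.17 in control arrays. In 2 neighbouring probe sets by identifier every inhibitor array lay above every control array, against 5.89% of all probe sets, and in 1 every inhibitor array lay below, against 6.32%. The pair had differences of 0.77 (SE 0.30) and 0.76 (SE 0.35), with adjusted p values of 0.80 and 0.81 in limma. The probe set with every inhibitor array below was not next to that pair by identifier. It had 6.01, 5.92 and 6.02 in inhibitor arrays and 6.09, 6.07 and 6.04 in control arrays, a difference of -0.083 (SE 0.13).

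FN1, the secreted matrix protein fibronectin, had 3.32, 3.58 and 3.58 in inhibitor arrays and 3.75, 3.36 and 3.15 in control arrays. Its range over the 6 arrays, 0.595, was the widest of the 10 genes, and both its ends were control arrays. The difference was 0.072 (SE 0.15, 95% interval -0.28 to 0.42), and it became -0.062 without control replicate 3. FN1 has 59 probe sets, and 47 of them were at or below the olfactory receptor mark. The remaining 12 reached up to 7.72, in the probe set with 7.71, 8.48 and 7.54 in inhibitor arrays and 8.47, 7.44 and 6.67 in control arrays. Across all 59, 31 differences were positive and 28 negative, against 50.2% and 49.8% of all probe sets. The FN1 probe set with the smallest p was dim, at 2.47, 3.02 and 3.40 in inhibitor arrays and 4.78, 4.49 and 4.57 in control arrays, a difference of -1.65 (SE 0.26, adjusted p 0.76 in limma). It was the only FN1 probe set lower at an unadjusted p under 0.05 in limma, and 3 were higher. Of all probe sets, 3.09% were lower and 3.11% higher at that p. The 3 higher FN1 probe sets had differences of 1.52 (SE 0.39), 1.21 (SE 0.43) and 0.65 (SE 0.23), with adjusted p values of 0.78 to 0.80. Of those 3, only the last lay above the olfactory receptor mark, with 5.28, 5.74 and 5.37 in inhibitor arrays and 4.78, 5.15 and 4.51 in control arrays, without overlap.

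**Figure D2:**
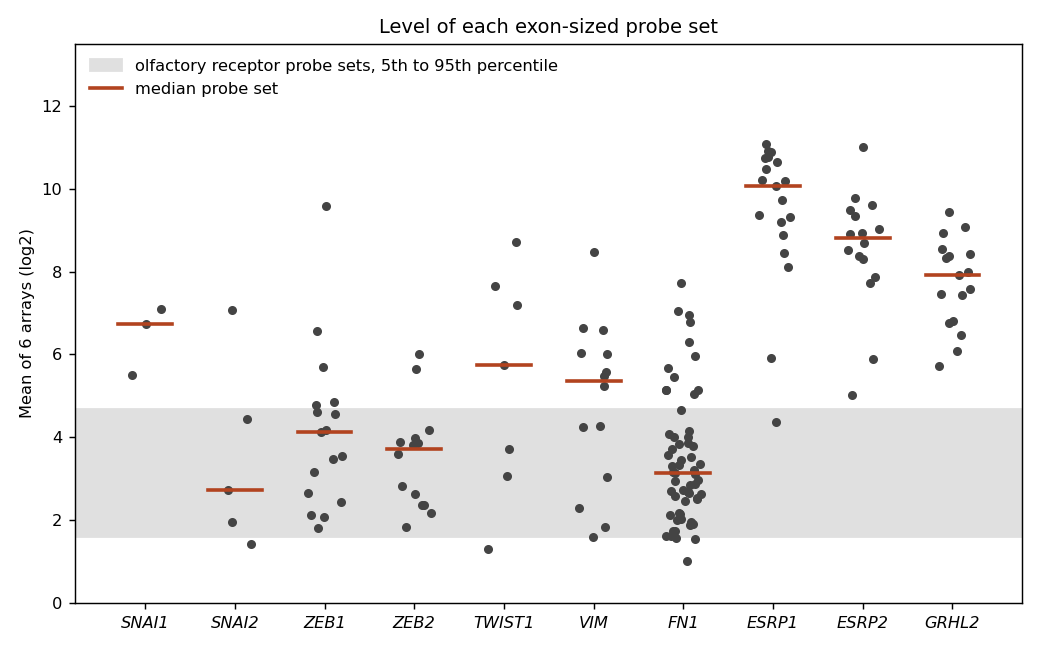
Mean log2 value over the 6 arrays (vertical axis) of each probe set of the 10 genes (dots), with the median probe set of each gene as a line. The band spans the 5th to 95th percentile of olfactory receptor probe sets, 1.59 to 4.67, and holds most probe sets of SNAI2, ZEB1, ZEB2 and FN1 but none of GRHL2, ESRP2 or SNAI1 and 1 of ESRP1.

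ESRP1 and ESRP2 encode RNA-binding proteins that impose the epithelial pattern of exon use. ESRP1 had 9.42, 9.38 and 9.44 in inhibitor arrays and 9.41, 9.45 and 9.55 in control arrays. These 6 values spanned 0.170, the narrowest range of the 10 genes, and overlapped between groups. The difference was -0.058 (SE 0.086, 95% interval -0.25 to 0.14). Of 19 probe sets, 18 lay above the olfactory receptor mark, and the median probe set was at 10.07.

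A pair of ESRP1 probe sets departed from the rest of that gene. The dimmest, the second by identifier, had 3.31, 3.98 and 3.52 in inhibitor arrays and 5.61, 4.49 and 5.30 in control arrays, a difference of -1.53 (SE 0.34, adjusted p 0.76 in limma). The other, ranked 8 by identifier, went the opposite way, at 9.53, 9.70 and 9.87 in inhibitor arrays and 9.14, 8.59 and 9.45 in control arrays, a difference of 0.64 (SE 0.25, adjusted p 0.80). Neither passed the threshold, and no probe set of the 224320 did.

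ESRP2 had 8.48, 8.38 and 8.60 in inhibitor arrays and 8.53, 8.53 and 8.68 in control arrays. Replicate 3 was the highest array of each group, and the groups overlapped. The difference was -0.092 (SE 0.098, 95% interval -0.31 to 0.13), and it was -0.038 without inhibitor replicate 2. All 16 of its probe sets lay above the olfactory receptor mark, and 13 had a negative difference, against 49.8% of all probe sets. These 16 share the same arrays and are not independent.

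GRHL2, a grainyhead-like transcription factor that sustains E-cadherin and other junction genes, had 7.82, 7.70 and 7.66 in inhibitor arrays and 7.78, 7.63 and 7.77 in control arrays. The mean was 7.73 ± 0.081 in inhibitor arrays and 7.73 ± 0.080 in control arrays (SD, n = 3 each), and the interval of the difference ran from -0.21 to 0.21. In linear terms that interval spans 0.865-fold to 1.15-fold. All 17 probe sets lay above the olfactory receptor mark, and none had groups that did not overlap.

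**Figure D3:**
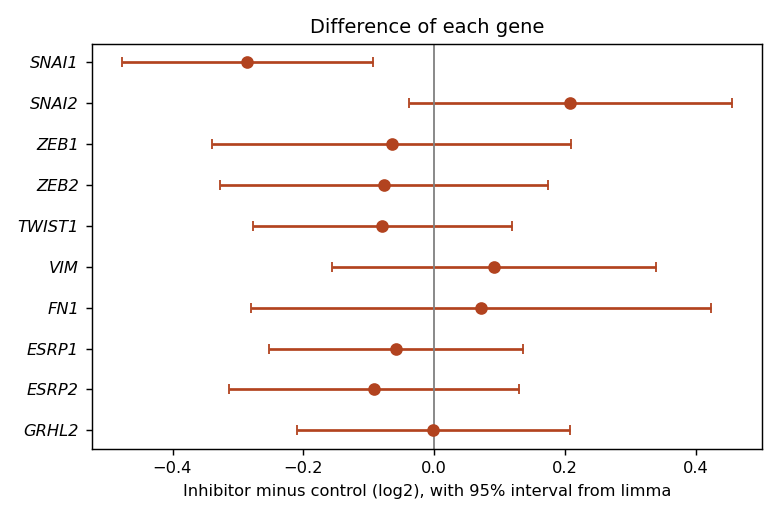
Difference between inhibitor and control arrays (log2, horizontal axis) of each gene with its 95% interval from limma. The interval of SNAI1, -0.48 to -0.094, excludes 0 before adjustment, and the other 9 intervals include it.

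Level and scatter of the probe sets went together. The 85 member probe sets at or below the olfactory receptor mark had a median absolute difference of 0.36 between groups, with extremes of -1.65 and 1.65. The 86 above it had a median of 0.13, with extremes of -0.95 and 0.77. Of the 171, 9 had an unadjusted p under 0.05, 5 higher and 4 lower, against 6.21% of all probe sets (3.11% higher and 3.09% lower), and 16 had groups that did not overlap, against 12.2%.

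**Figure D4:**
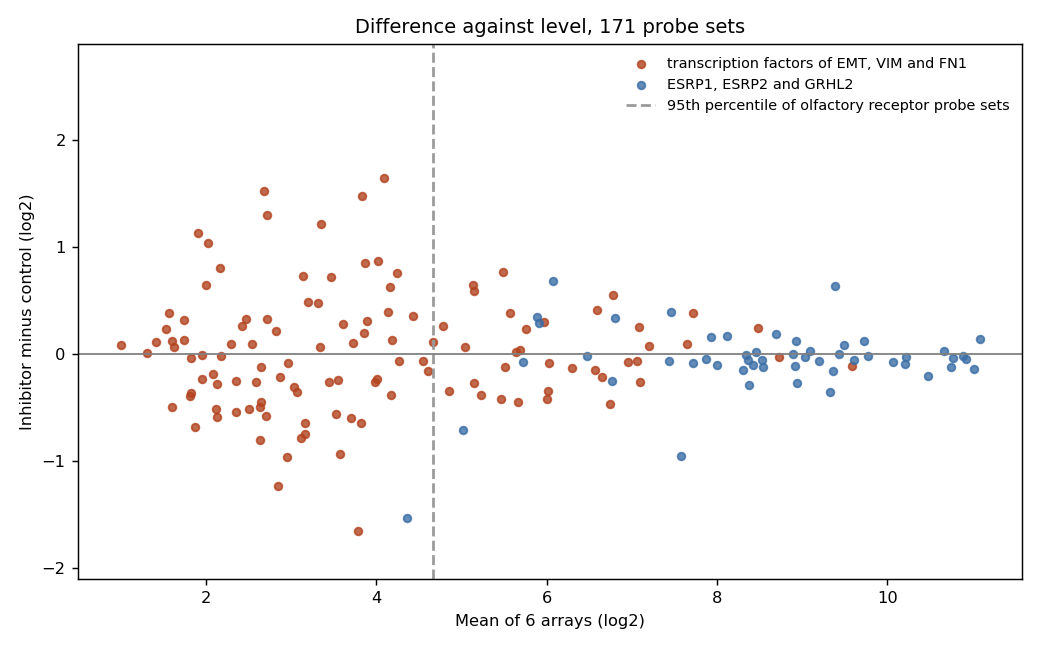
Difference between inhibitor and control arrays (log2, vertical axis) against the mean of 6 arrays (log2, horizontal axis) for the 171 probe sets, with ESRP1, ESRP2 and GRHL2 in blue and the other 7 genes in red. Probe sets left of the dashed line at 4.67 spread between -1.65 and 1.65, and those right of it between -0.95 and 0.77.

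The labelled cell type was set against its markers. Of 8 listed markers of a gastric epithelial line, KRT8 (11.98 in inhibitor and 12.03 in control arrays) and EPCAM (10.57 and 10.36) were bright. In all, 7 of the 8 lay above the olfactory receptor mark. The exception was the gastric marker CLDN18, at 3.97 in inhibitor and 4.21 in control arrays. CDH1, which encodes E-cadherin, had a mean message level of 6.11 in inhibitor and 6.10 in control arrays, a difference of 0.014 (SE 0.092). These arrays do not read protein. Of 7 leukocyte markers measured, 4 lay above the mark. The mean level of all 7 was 4.60 to 4.67 in inhibitor arrays and 4.49 to 4.59 in control arrays, without overlap. The 4 above the mark were LYZ (8.79 in inhibitor and 8.84 in control arrays), CSF1R (5.12 and 4.96), CD14 (4.71 and 4.25) and ITGAM (4.69 and 4.70). CD3E, MS4A1 and the pan-leukocyte marker PTPRC lay below it. PTPRC was at 2.62 and 2.55 in inhibitor and control arrays, near the olfactory receptor median. For 6 endothelial markers, none above the mark, the mean level was 3.61 to 3.67 in inhibitor and 3.68 to 3.86 in control arrays, also without overlap. For 8 fibroblast markers, 4 above the mark, it was 4.45 to 4.50 and 4.37 to 4.54, with overlap. Of single genes, 12.9% had groups that did not overlap, and no such share was computed for list means. The part of such markers in the SNAI1 difference was not tested, and in these bulk samples fewer cells with a message and less message per cell cannot be told apart.

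Genes around the 10 were taken from lists written by function, and 0 passed the threshold in any list in either direction. Over all genes the median difference was 0.0021, with 50.7% positive and 49.3% negative. The median over the 10 EMT genes was -0.062, with 3 positive and 7 negative.

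Of 8 further EMT transcription factors measured, 3 had a positive and 5 a negative difference, with a median of -0.11. TCF3, which encodes the E-box binding E2A proteins, had 8.52, 8.55 and 8.44 in inhibitor arrays and 8.80, 8.72 and 8.67 in control arrays, with all inhibitor arrays below. Its difference was -0.22 (SE 0.087, adjusted p 0.79 in limma), with 20 of 21 probe sets negative, against 49.8% of all probe sets. These 21 share the same arrays and are not independent. TCF4, which encodes the related E2-2, had 0.13 (SE 0.084), with all inhibitor arrays above.

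Other transcription factors of epithelial identity had the lowest median among these lists, -0.14 over 9 measured, with 3 positive and 6 negative. In 5 of them every inhibitor array lay below every control array, against 7.68% of all genes. These were FOXA1, OVOL1, GRHL3, ELF3 and KLF5, of which the last 4 were named after their values were seen. The list was chosen with earlier results of these data known, so the count is a description and not a result about such genes. FOXA1, a pioneer factor of endoderm, had 7.70, 7.51 and 7.75 in inhibitor arrays and 7.88, 7.96 and 7.95 in control arrays, a difference of -0.28 (SE 0.096, adjusted p 0.79 in limma). OVOL1, a zinc finger repressor that opposes EMT, had -0.23 (SE 0.083), and GRHL3, a relative of GRHL2, had -0.19 (SE 0.10). On the positive side, FOXA2 had 0.095 (SE 0.099).

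Epithelial effector genes were spread on both sides, 7 positive and 13 negative of 20 measured, with a median of -0.027. JUP, the junction protein plakoglobin, had 9.13, 9.20 and 9.24 in inhibitor arrays and 9.52, 9.38 and 9.36 in control arrays, a difference of -0.23 (SE 0.090). EPCAM, an epithelial adhesion molecule, had 10.55, 10.52 and 10.63 in inhibitor arrays and 10.29, 10.27 and 10.51 in control arrays, a difference of 0.21 (SE 0.098). Both had an adjusted p of 0.79 in limma. Mesenchymal effector genes had 9 positive and 10 negative differences, a median of -0.014 and 10 of 19 members above the olfactory receptor mark. Their extremes by test statistic were NT5E, an ectonucleotidase, at 0.17 (SE 0.11) and the matrix protein gene TNC at -0.17 (SE 0.11). Both lay below that mark, NT5E at 3.28 in inhibitor and 3.12 in control arrays and TNC at 3.58 and 3.76.

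**Figure D5:**
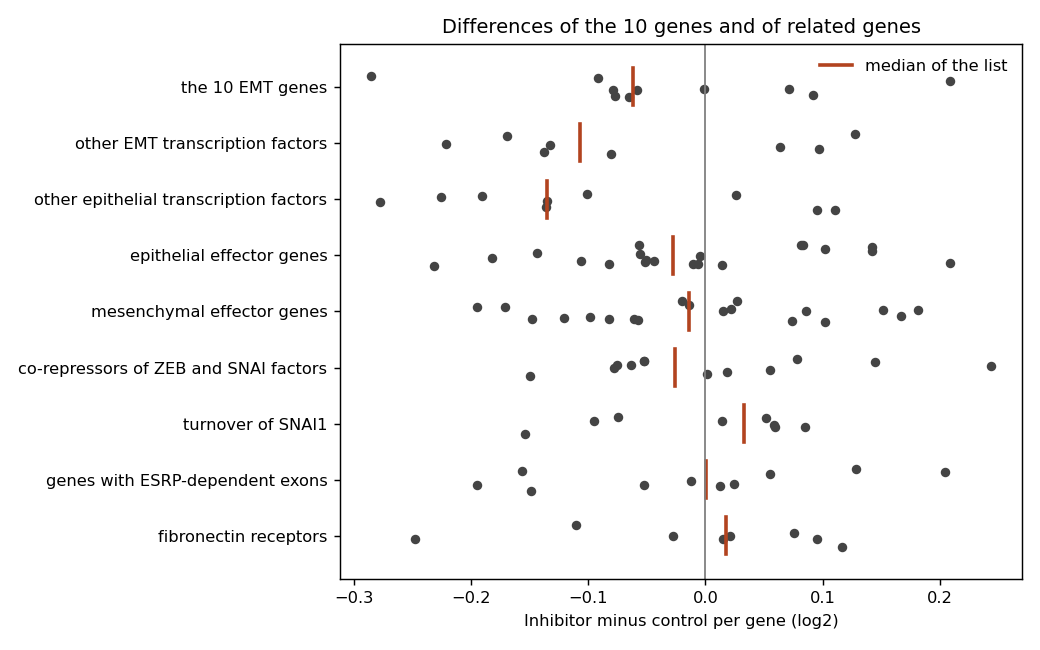
Difference between inhibitor and control arrays (log2, horizontal axis) of every measured gene in the 10-gene set and in 8 lists of related genes (dots), with the median of each list as a line. The medians lie between -0.14 for other epithelial transcription factors and 0.033 for genes of SNAI1 turnover.

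Partners of the 10 genes were also spread on both sides of 0. Co-repressors used by ZEB and SNAI proteins had 6 positive and 6 negative differences, with HDAC2, a histone deacetylase, at 0.24 (SE 0.13) and CTBP2, a ZEB-binding co-repressor, at -0.15 (SE 0.095). Genes that control the turnover of SNAI1 protein had 5 positive and 3 negative, with the kinase gene CSNK1A1 at 0.085 (SE 0.092) and the phosphatase gene CTDSP1 at -0.15 (SE 0.097). Genes with exons that depend on ESRP proteins had 5 positive and 5 negative and a median of 0.00027. These are whole-gene values, and use of the exons themselves was not analysed here. In this list ECT2 had 0.20 (SE 0.13) and the polarity gene SCRIB had -0.19 (SE 0.088). Among fibronectin receptors ITGA4 had 0.12 (SE 0.15), at levels below the olfactory receptor mark (3.63 in inhibitor and 3.52 in control arrays). ITGA5, the main fibronectin-binding alpha chain, had 8.09, 8.05 and 8.23 in inhibitor arrays and 8.45, 8.30 and 8.37 in control arrays. The ITGA5 difference was -0.25 (SE 0.092, adjusted p 0.79 in limma), with 28 of 30 probe sets negative, against 49.8% of all probe sets. These 30 share the same arrays and are not independent.

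The E-box CAGGTG, which ZEB and SNAI proteins bind, was counted on either strand (CAGGTG or CACCTG) in RefSeq promoter windows running from 250 bases before to 50 bases after a start. It was found in 20.6% of 35116 windows, and in at least 1 window of 24.1% of genes in the table. Of the 10 EMT genes, the table was matched for ZEB1, ZEB2, VIM and FN1, and only ZEB1 held the motif, in 2 of its 7 windows. Of 21 epithelial effector genes, 12 were matched and 9 held it. Genes with several start windows have more chances of a match. A match describes letters only, and no match says only that these letters are not in this window. The ZEB1 window with most matches, plus strand, and the JUP window with most matches, minus strand, are shown with the motif in capitals, since ZEB1 is a member and JUP had the lowest test statistic among epithelial effector genes.
ZEB1, chr10:31318966-31319265 (GRCh38.p14): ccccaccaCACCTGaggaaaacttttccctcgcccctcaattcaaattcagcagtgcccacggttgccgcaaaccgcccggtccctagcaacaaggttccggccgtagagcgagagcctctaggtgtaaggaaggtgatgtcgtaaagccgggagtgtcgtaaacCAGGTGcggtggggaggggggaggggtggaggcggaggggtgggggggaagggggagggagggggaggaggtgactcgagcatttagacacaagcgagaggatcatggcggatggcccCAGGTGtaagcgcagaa
JUP, chr17:41785927-41786226 (GRCh38.p14): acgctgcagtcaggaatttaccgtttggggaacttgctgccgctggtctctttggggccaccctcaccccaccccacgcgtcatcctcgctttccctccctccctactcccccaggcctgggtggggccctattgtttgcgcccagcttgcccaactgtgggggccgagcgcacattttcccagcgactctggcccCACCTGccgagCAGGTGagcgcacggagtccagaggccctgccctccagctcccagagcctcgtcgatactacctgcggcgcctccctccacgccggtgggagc
The ZEB1 matches begin at bases -242, -85 and 34 relative to the start, and the JUP matches at -54 and -43.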

How the data were processed

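Values were deposited as log2 expression of 257430 probe sets on 6 Affymetrix Human Gene 1.0 ST arrays, 1 column per array, with column medians of 6.02 to 6.07. Per the submitters' processing notes, the tools were RMA together with Affymetrix Expression Console and Transcriptome Analysis Console; versions, settings and the genome build are not given in the sources used here. RMA makes the distributions of arrays nearly equal and so hides any shift common to most genes. Per the labels' protocols, biotin-labelled single-stranded cDNA was hybridised.

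Names came from the platform annotation: 224320 had 1 gene symbol, 10159 several and 22951 none given here. Older symbols were updated through RefSeq (GRCh38.p14), which changed no member. The gene value was the mean log2 value of its single-gene probe sets, with no filter on dim genes. Inhibitor was compared with control in limma 3.58.1 (R 4.3.3; lmFit, eBayes) over all 18656 genes, and separately over all single-gene probe sets, with Benjamini-Hochberg adjustment at 0.05; this fit gave every SE and interval. Each difference is the inhibitor mean minus the control mean, in log2 units. The fit was tested on simulated data.

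The 10 genes and the lists were chosen with earlier results of these data known. From each list of related genes the text names those with the highest and lowest moderated t, plus genes said to be named after their values were seen. The naming of cell type markers and of CDH1 did not follow that rule throughout. Some listed genes were not analysed here. Alternatives were a replicate block, leaving out each array, quantile normalization, median centring, filters on dim genes and probe sets, the median or brightest probe set, and eBayes with trend or robust.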

Additional observations from a re-analysis of the deposited data

How the results depend on the processing

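Under every alternative run, limma called 0 genes lower and 0 of the EMT genes. It also called 0 of their probe sets wherever probe sets were fitted, which was not done for the filter on dim genes, the median or the brightest probe set. It called 0 genes higher, except that leaving out 1 array gave 0 to 1, the 1 arising without control replicate 3. Genes at an unadjusted p under 0.05 numbered 856 to 1271 over all settings, against 1141 of 18656. The replicate block gave 0 genes. Deviations of same-numbered arrays correlated at -0.032, -0.040 and 0.17, so the replicate numbers were treated as labels without pairing. SNAI1 was lower in all 15 alternatives, from -0.47 with the median of its probe sets to -0.25 without inhibitor replicate 2, with an adjusted p of 0.70 to 0.91 and an unadjusted p of 0.0054 to 0.14, the highest with its brightest probe set. The sign held but the size moved for SNAI2 (0.11 to 0.33 in the 14 that kept it), VIM (0.010 to 0.24 in 15) and ESRP2 (-0.15 to -0.038 in 15). Without the dimmest 30% of genes, ZEB1, ZEB2, SNAI2 and FN1 drop out. With the median of probe sets the sign changed for ZEB1 (0.21), ZEB2 (0.0067) and TWIST1 (0.23). It changed without the dimmest 30% of probe sets for TWIST1 (0.094) and ESRP1 (0.024), and with the brightest probe set for ESRP1 (0.14) and GRHL2 (0.0033). GRHL2 also turned with quantile normalization (0.0069) and median centring (0.0057). Leaving out 1 array gave -0.13 to 0.058 for ZEB1, -0.16 to -0.0035 for ZEB2, -0.12 to -0.043 for TWIST1, -0.062 to 0.24 for FN1, -0.087 to -0.017 for ESRP1 and -0.047 to 0.033 for GRHL2. The causes were not tested. Most probe sets of SNAI2, ZEB1, ZEB2 and FN1 lay at or below the olfactory receptor mark. That limits what their values can show, and the part of low signal in these changes was not tested.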

Other observations

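Of the 10 EMT genes, FN1 varied most over the 6 arrays, and the genes most like it across those arrays by Pearson's r were C17orf99 (0.992), SLC67A1-AS (0.985) and ANGPTL7 (0.985). These are the highest of 18655 correlations over only 6 arrays in 2 groups, and they are given as a description. Among markers of other cell types, the monocyte co-receptor gene CD14 had 5.00, 4.68 and 4.45 in inhibitor arrays and 4.33, 4.39 and 4.03 in control arrays, a difference of 0.46 (SE 0.16, adjusted p 0.79 in limma). The endothelial adhesion gene PECAM1 had 3.04, 2.98 and 3.44 in inhibitor arrays and 3.87, 3.63 and 3.33 in control arrays, a difference of -0.46 (SE 0.17, adjusted p 0.79 in limma). PECAM1 lay below the olfactory receptor mark for genes, 4.29, and its groups overlapped. The CD14 control mean, 4.25, was also below that mark. Neither passed the threshold.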
